A study of Homo sapiens with 2 samples.

Results

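Genomic imprinting was described in HEK293T cells through 10 classical imprinted genes: H19, IGF2, MEG3, DLK1, PEG3, PEG10, MEST, KCNQ1OT1, CDKN1C and SNRPN. They were chosen by symbol, and each matched 1 row by its GRCh37 gene identifier in the tables of both replicates, so 10 of 57736 genes are described. HEK293T is an immortalized cell line made from human embryonic kidney and expressing the large T antigen of SV40. The cells are labelled kidney and wild type, were grown in DMEM with serum to near confluence, received no agent that the labels name, and form 1 group with 2 replicates of poly(A)+ RNA-Seq. With 1 group, genes were compared with genes and replicate 1 with replicate 2, and no contrast of conditions was possible. The labels call the samples replicas without saying whether they came from separate cultures, so their spread may be technical.

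An imprinted gene is transcribed mainly from the allele inherited from the mother or from the father, because methylation set in the germ line at an imprinting control region marks the alleles differently. Imprinted genes lie in clusters in which a long noncoding RNA is often made from one parental chromosome and neighbouring protein-coding genes are silenced on it. Many of them act on fetal and placental growth: IGF2 promotes it, and H19 and CDKN1C restrain it. H19, MEG3 and CDKN1C are known as maternally expressed and the remaining 7 as paternally expressed. These data hold no allele-specific counts, so the parental origin of a transcript was not measured.

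The finding for these genes is that some were read and others were not, so the sequence just before the start of the gene is shown for the 4 of 10 that have an entry in the RefSeq promoter table (GRCh38.p14). Each line gives the 250 bases before a start, 5′ to 3′ in the direction of the gene, with every CG pair, the site of DNA methylation, in capitals. Where a gene has several starts, the window with the most CG pairs is shown, and of equal windows the one with the lower coordinate. H19 was read at a low level, MEST had 1 read in all, and MEG3 and SNRPN had none.

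H19 (chr11:2001267-2001516, minus strand): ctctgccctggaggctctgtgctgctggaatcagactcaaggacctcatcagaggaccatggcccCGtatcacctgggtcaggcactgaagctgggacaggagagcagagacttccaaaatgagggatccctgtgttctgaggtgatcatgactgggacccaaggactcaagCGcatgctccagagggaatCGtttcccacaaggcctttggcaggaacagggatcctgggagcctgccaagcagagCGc
MEG3 (chr14:100825858-100826107, plus strand): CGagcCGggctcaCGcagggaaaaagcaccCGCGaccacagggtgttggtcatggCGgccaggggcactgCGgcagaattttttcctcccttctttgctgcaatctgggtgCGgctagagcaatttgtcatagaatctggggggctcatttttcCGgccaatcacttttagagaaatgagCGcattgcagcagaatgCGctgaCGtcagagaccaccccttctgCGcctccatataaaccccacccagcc
MEST (chr7:130486097-130486346, plus strand): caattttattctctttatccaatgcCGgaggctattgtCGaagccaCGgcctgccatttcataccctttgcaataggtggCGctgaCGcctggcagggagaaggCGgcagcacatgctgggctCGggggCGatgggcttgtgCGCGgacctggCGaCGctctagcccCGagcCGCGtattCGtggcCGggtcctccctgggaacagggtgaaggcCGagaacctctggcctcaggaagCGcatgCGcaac
SNRPN (chr15:24954737-24954986, plus strand): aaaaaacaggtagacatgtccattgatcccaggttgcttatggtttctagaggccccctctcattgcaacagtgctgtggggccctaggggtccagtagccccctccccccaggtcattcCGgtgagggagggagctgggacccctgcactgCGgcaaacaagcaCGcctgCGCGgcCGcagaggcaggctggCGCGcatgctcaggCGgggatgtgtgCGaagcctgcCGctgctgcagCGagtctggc

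The letters searched were CG, which read the same on both strands. The H19 window held 4 such pairs, and 70.7% of the 35116 windows of this length in the table held at least as many. The MEG3 window held 13 pairs (46.6% of windows held at least as many), the MEST window 20 (32.4%) and the SNRPN window 12 (48.5%), beside a median of 11 over all windows. H19 has 1 window in the table, whereas the windows of the others are the highest of several, so their percents are not like that of H19. The windows not shown held 11 and 13 pairs for MEG3, 9, 11, 16 and 20 for MEST, and 1, 6 and 6 for SNRPN. The MEST window with an equal 20 pairs starts at 130491835. The windows are therefore a description and were not compared with the levels. Methylation itself was not measured in these libraries.

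Several of these genes also host microRNAs, whose mature forms the poly(A)+ libraries were not made to capture. The mature sequences from RefSeq are given for microRNAs that lie within the span of these genes, with the seed, bases 2 to 8, in capitals. MIR335 shares no exonic bases with MEST, so it lies outside the annotated exons of its host. No seed is shared among the 5.

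hsa-miR-675-5p (host H19): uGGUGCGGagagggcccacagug
hsa-miR-675-3p (host H19): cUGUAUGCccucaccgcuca
hsa-miR-335-5p (host MEST): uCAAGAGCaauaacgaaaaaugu
hsa-miR-335-3p (host MEST): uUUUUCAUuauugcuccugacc
hsa-miR-770-5p (host MEG3): uCCAGUACcacgugucagggcca

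The gene rows of MIR335, MIR770 and MIR483, which lies in IGF2, held no reads in either replicate. No entry was found for the mature form of MIR483, and MIR675 was not analysed here as a row of its own.

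The libraries held 10593491 and 10104118 estimated reads in genes. At this depth a gene without reads may have had up to 3, which is 0.283 and 0.297 CPM (reads scaled by the library total) in replicates 1 and 2, and these limits cover counting error only, since PCR copies are not independent molecules. The tissue label was checked with 13 kidney markers, of which 3 were detected (WT1, LRP2 and PAX2), with a TPM summed over the list of 23.7. UMOD, AQP2, SLC12A3, SLC34A1 and CDH16, which define mature nephron segments, had no reads. Of 13 markers of other cell types 2 were detected, the fibroblast and muscle genes COL1A1 and ACTA2, with a summed TPM of 12.9, while CDH5, ALB, KRT5, KRT14 and HBG1 had none. Both lists hold protein-coding genes only, of which 63.7% over the genome were detected and 15.8% had no read. Each list was thus detected less often than such genes at large, and the difference between the lists was not tested. In RNA from many cells, fewer expressing cells and less RNA per cell cannot be told apart.

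Levels are given in TPM (the share of transcripts, corrected for their length and scaled to 1 total per library), and detection meant that both replicates reached a TPM of 1. Of the 10 imprinted genes 4 were detected: KCNQ1OT1, CDKN1C, IGF2 and H19. PEG10 and MEST had reads below that threshold. DLK1, MEG3, PEG3 and SNRPN had no read in either replicate. By the same rule 27.7% of all genes, 63.7% of protein-coding genes and 12.4% of lncRNA genes were detected, and 46.4% of all genes, 15.8% of protein-coding genes and 50.3% of lncRNA genes had no read in either replicate. Split by type, 2 of the 7 protein-coding imprinted genes were detected and 3 of 7 had no read, and 2 of the 3 lncRNA genes were detected and 1 of 3 had no read. By allele, 2 of 3 maternally expressed genes were detected, with a median TPM of 1.27, and 2 of 7 paternally expressed genes, with a median of 0.03. No test was made of these small counts.

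**Figure D1:**
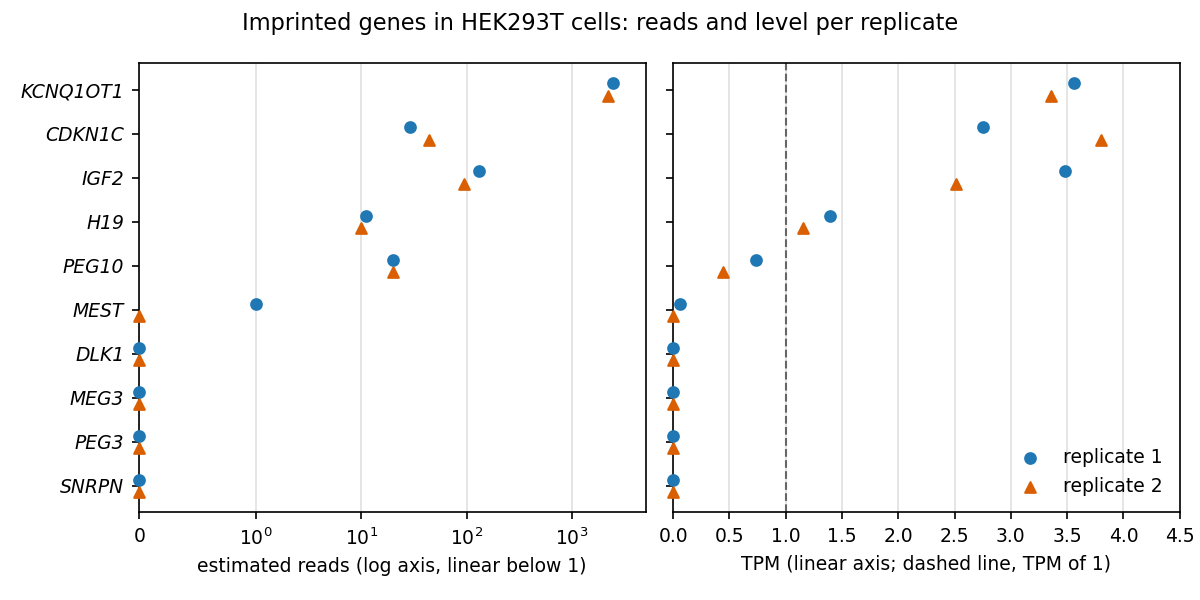
Estimated reads (left, log axis that is linear below 1) and TPM (right, linear axis) of the 10 imprinted genes, with a circle for replicate 1 and a triangle for replicate 2. KCNQ1OT1 stands far to the right in reads, at 2434.39 and 2212.51, whereas in TPM it lies beside CDKN1C and IGF2, and 4 genes sit at 0 in both panels.

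Among the growth factors, IGF2, the insulin-like growth factor of fetal life, had 131 reads in replicate 1 and 93.85 in replicate 2. Its TPM was 3.48 and 2.51, with a mean of 2.995 ± 0.686 (SD, n = 2), and 42.6% of protein-coding genes had a lower mean TPM. Both replicates were above the detection threshold, with the higher value in replicate 1. The gene lies on chromosome 11 from 2150342 to 2179621 on the minus strand (GRCh37, GENCODE 44), and 20.4% of its exonic bases are shared with the read-through gene INS-IGF2. INS-IGF2, the insulin gene INS and the antisense gene IGF2-AS had no reads. The IGF2 count had little uncertainty from sharing reads among genes, with a posterior SD from RSEM of 1.5 and 1.85 reads.

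DLK1, a transmembrane protein with EGF repeats that restrains adipocyte differentiation, had no reads. It spans chromosome 14 from 101192042 to 101204561 on the plus strand. For its length, 3 reads would correspond to a TPM of 0.463 in replicate 1 and 0.481 in replicate 2, so a level below these values was not detectable. Its paralogue DLK2, which is not known as imprinted, had a TPM of 3.93 and 3.83, at least 7.97 times the limit for DLK1 in either library.

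The genes that act with IGF2 were read at levels both above and below its own. Of 16 genes of IGF2 signalling and mRNA binding, all protein-coding, 12 were detected, beside 63.7% of protein-coding genes, 1 (IGFBP1, a binding protein of liver) had no read, and 3 lay between. IRS4, an insulin receptor substrate, was the highest with 398 and 395 TPM. It was followed by IGF2BP1, which binds IGF2 mRNA, with 150 and 138 TPM, which is 49.0 ± 8.48 times the TPM of IGF2 (SD, n = 2). IGF2BP3 had 54.8 and 52.7 TPM and IGF2BP2 had 49.9 and 46.8. IGF2R, the receptor that removes IGF2 from the cell surface and is itself imprinted in mouse, had 46.7 and 40.8 TPM, which is 14.8 ± 2.02 times IGF2. The signalling receptors IGF1R (34.2 and 32.8 TPM) and INSR (11.8 and 10.6 TPM) were named after their values were seen. IGF1, the paralogue of IGF2, had 1 read in replicate 1 and none in replicate 2. The replicates stayed close together for these genes, and IRS4, the 3 mRNA-binding proteins, IGF2R, IGF1R and INSR lay above the IGF2 range in both. The binding proteins IGFBP2 (44.1 and 42.7 TPM) and IGFBP5 (13.6 and 15.4 TPM) also lay above it. The values of IGFBP4 (4.49 and 3.24 TPM) overlapped the IGF2 range. The receptor substrates IRS1 (1.90 and 1.51 TPM) and IRS2 (1.52 and 1.34 TPM) lay below that range in both replicates. So did the binding proteins IGFBP3 (0.25 and 0.42 TPM) and IGFBP6 (0.40 and 0.63 TPM), IGFBP1 and IGF1. IRS1, IRS2 and the binding proteins other than IGFBP1 were likewise named after their values were seen.

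CDKN1C encodes p57, an inhibitor of cyclin-dependent kinases. It had 29 reads in replicate 1 and 44 in replicate 2, and a TPM of 2.75 and 3.80 with a mean of 3.275 ± 0.742 (SD, n = 2). Here replicate 2 was the higher, the reverse of IGF2. The gene is short, on chromosome 11 from 2904443 to 2907005 on the minus strand, and its reads were all assigned without sharing (posterior SD of 0 in both). The other inhibitors of its family, which are not imprinted, were higher: CDKN1B (p27) had 17.0 and 17.6 TPM, 5.41 ± 1.09 times CDKN1C, and CDKN1A (p21) had 7.67 and 5.81 TPM, 2.16 ± 0.891 times CDKN1C (SD, n = 2). Of the 13 genes of the family and its targets 12 were detected, beside 63.7% of protein-coding genes, none had 0 reads in both replicates, and the germ-line cyclin CCNA1 lay between. The kinases CDK4 (281 and 267 TPM) and CDK2 (136 and 126 TPM) and the cyclins CCNA2 (85.4 and 88.6 TPM), CCND2 (67.8 and 66.8 TPM) and CCND1 (63.6 and 53.5 TPM) were the highest of this list.

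**Figure D2:**
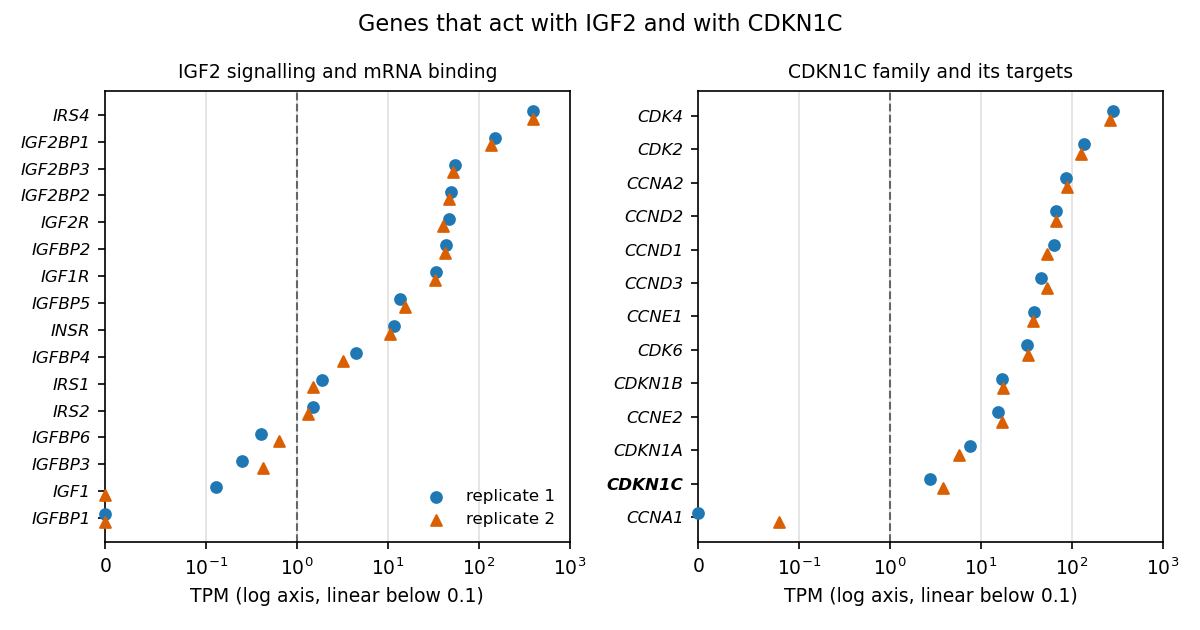
TPM of the genes that act with IGF2 (left) and with CDKN1C (right), on a log axis that is linear below 0.1, with a circle for replicate 1 and a triangle for replicate 2 and a dashed line at a TPM of 1. IRS4 and CDK4 stand at the top with 395 to 398 and 267 to 281 TPM, and CDKN1C, in bold, is the lowest of the 3 inhibitors of its family.

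KCNQ1OT1 is a long noncoding RNA made from the paternal chromosome within KCNQ1 and known to silence neighbouring genes on that chromosome. It had 2434.39 and 2212.51 reads, by far the most of the 10 genes, and held 92.7% and 92.9% of their reads. Its TPM was 3.56 and 3.36, with a mean of 3.46 ± 0.141 (SD, n = 2), which is 29.7% and 29.8% of their summed TPM of 11.98 and 11.26. The share per read and the share per length differ because the transcript used in the tables is 91667 nt long. Among lncRNA genes, 94.8% had a lower mean TPM. The annotation places the gene on chromosome 11 from 2618538 to 2721233 on the minus strand, and 0.131% of its exonic bases lie in exons of KCNQ1 on the opposite strand. The whole span of KCNQ1OT1 lies within that of KCNQ1 (2465884 to 2870335, plus strand). Whether counting told the strands apart is not stated in the sources used here. KCNQ1, a potassium channel subunit, had 19.18 and 16.23 reads.

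H19, a maternally expressed lncRNA, had 11 reads in replicate 1 and 10 in replicate 2. The exact 95% Poisson intervals of these counts reach from 5.49 to 19.7 and from 4.80 to 18.4. Its TPM was 1.39 and 1.15, a mean of 1.27 ± 0.170 (SD, n = 2), just above the detection threshold, and 87.1% of lncRNA genes had a lower mean. It lies on chromosome 11 from 2016396 to 2025782 on the minus strand. Both replicates passed, by a margin smaller than the counting error.

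MEG3, the maternally expressed lncRNA of the cluster on chromosome 14 (101245747 to 101327368, plus strand), had no reads. The limit from 3 reads is a TPM of 0.213 in replicate 1 and 0.222 in replicate 2. MIR493HG, which shares 0.465% of the exonic bases of MEG3 on the same strand, had 0 reads in replicate 1 and 1 in replicate 2.

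PEG10, derived from the gag and pol genes of a retrotransposon, had 20 reads in each replicate. Its TPM was nevertheless 0.74 in replicate 1 and 0.44 in replicate 2, with a mean of 0.59 ± 0.212 (SD, n = 2), since the length that RSEM weighted over its 4 transcripts was 3683.25 nt and 6394.04 nt. At equal counts, the level was thus lower in the replicate with the greater length. PEG10 lies on chromosome 7 from 94285637 to 94299007 on the plus strand, and 3.27% of its exonic bases are shared with SGCE on the opposite strand. Whether strand was used in counting is not stated in the sources used here. The posterior SD of the PEG10 count was 0 in both.

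MEST, a protein of the alpha/beta hydrolase fold made in mesoderm, had 1 read in replicate 1 and 0 in replicate 2, a TPM of 0.06 and 0. It lies on chromosome 7 from 130126012 to 130146306 on the plus strand. PEG3, a zinc-finger protein (chromosome 19 from 57321445 to 57352096, minus strand), had no reads, with a limit of 0.109 and 0.113 TPM. ZIM2, which shares 12.9% of the exonic bases of PEG3, had none either. The absence of reads at both leaves nothing to share out between them.

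SNRPN encodes SmN, a core spliceosomal protein made mainly in brain and heart. It had no assigned reads in either replicate, with limits of 0.489 and 0.308 TPM, and lies on chromosome 15 from 25068784 to 25223870 on the plus strand. In replicate 1 the posterior SD of its count was 0.43 reads although the estimate was 0, so the sampling by RSEM gave it a read in some draws. Its close paralogue SNRPB, which makes SmB in most tissues, had 408 and 384 TPM, at least 835 times the limit for SNRPN in either library. SNURF, which shares 23.9% of the exonic bases of SNRPN, had 1 read in replicate 1 and 0 in replicate 2. The long transcript SNHG14, which shares 4.14% of these bases, had 6 and 7 reads.

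By mean TPM the order was KCNQ1OT1 (3.46), CDKN1C (3.275), IGF2 (2.995), H19 (1.27), PEG10 (0.59) and MEST (0.03), followed by DLK1, MEG3, PEG3 and SNRPN at 0. Of the 9 pairs of neighbours in this order 3 had replicate ranges that did not overlap: IGF2 above H19, H19 above PEG10 and PEG10 above MEST. KCNQ1OT1, CDKN1C and IGF2 did not differ beyond the spread of their replicates. With 2 values against 2, an exact two-sided permutation test cannot go below p = 0.333, so the order carries no test.

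The 95% credibility interval that RSEM gives with each TPM was wider than these differences for most of the genes. In none of the 9 pairs did the interval of the higher gene lie wholly above that of the lower. Within each replicate the intervals of DLK1 and MEG3, both without reads, were separate, with MEG3 above. That of DLK1 ended at 1.91 and 1.98 TPM, and that of MEG3 began at 1.93 and 2.05. The interval also lay above the TPM in 6 of the 10 genes in replicate 1 and in 7 in replicate 2. For H19, with 14 annotated transcripts, it ran from 1.64 to 10.7 TPM in replicate 1 beside a TPM of 1.39. For MEG3, with 28 annotated transcripts and no reads, it ran from 1.93 to 18.7 TPM in replicate 1 and from 2.05 to 19.6 in replicate 2. For KCNQ1OT1, with 1 transcript, it ran from 3.16 to 3.42 and from 2.97 to 3.23, below the TPM in both replicates. Over all genes without reads, a lower bound of at least 1 TPM was rare, at 0.321% in replicate 1 and 0.347% in replicate 2. The interval was therefore not read as evidence of a level where a gene had no reads.

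**Figure D3:**
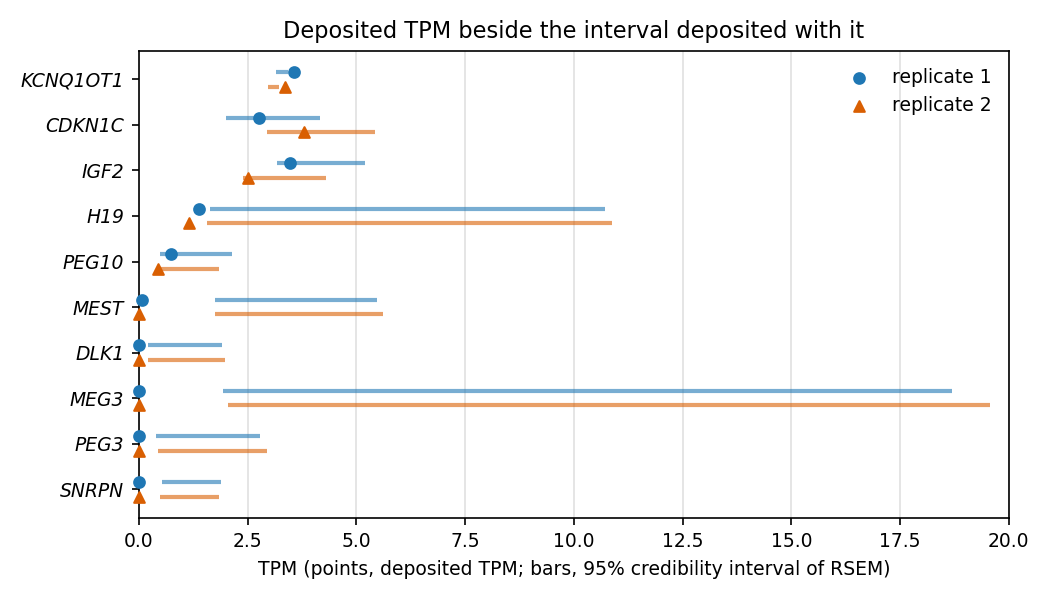
Deposited TPM (circle, replicate 1; triangle, replicate 2) and the 95% credibility interval of RSEM (bars) for the 10 imprinted genes, on a linear axis. The bars of MEG3 reach 18.7 and 19.6 TPM although its points are at 0, and those of KCNQ1OT1 end just below its points.

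The replicates were then compared with each other, gene by gene. The test was an exact two-sided binomial test of rounded reads against library sizes scaled by TMM, with Benjamini-Hochberg adjustment over the 17920 genes with at least 10 summed reads. It compares these libraries and not conditions, and it sets their difference against counting error alone, taking each read as an independent molecule, so that spread between cultures or from PCR copies is not part of it. None of the 5 imprinted genes with enough reads (H19, IGF2, PEG10, KCNQ1OT1 and CDKN1C) passed an adjusted p of 0.05 by the exact binomial test, beside 3.88% of all genes tested. The lowest adjusted p of the exact binomial test was 0.357, for IGF2, whose log2 ratio of replicate 2 to replicate 1 was -0.40 and whose unadjusted p was 0.0452, the only one of the 5 under 0.05. For CDKN1C the log2 ratio was 0.67, with an adjusted p of 0.408 by the exact binomial test. The median size of the log2 ratio was 0.078 over the 5 genes and 0.131 over all genes tested.

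**Figure D4:**
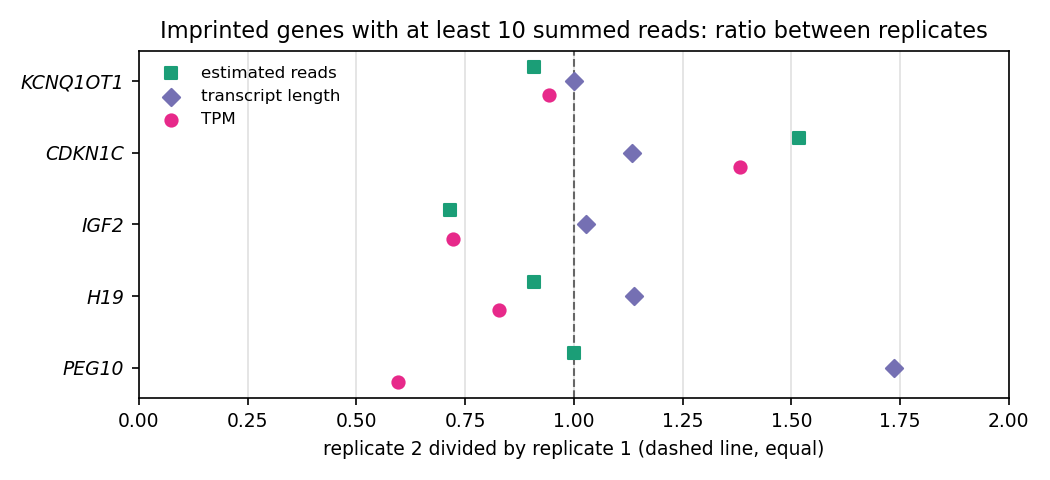
Ratio of replicate 2 to replicate 1 for the 5 imprinted genes with at least 10 summed reads, in estimated reads (squares), in the transcript length that RSEM weighted over isoforms (diamonds) and in TPM (circles), with a dashed line at 1. For PEG10 the reads are equal (ratio 1), the length ratio is 1.74 and the TPM ratio 0.595, and for CDKN1C reads and TPM are both higher in replicate 2 (1.52 and 1.38).

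The neighbours of these genes in their clusters were read next. Over the clusters of the 10 genes, 37 listed neighbours had a row, of which 9 were detected and 17 had no read in either replicate, with a median TPM of 0.045. These shares were 24.3% detected and 45.9% without reads, beside 27.7% and 46.4% of all genes. That comparison is not matched by type, since most of the 37 are protein-coding and most of all genes are not. The other neighbours are noncoding, and all 9 detected ones are protein-coding. Over the genome 63.7% of protein-coding and 12.4% of lncRNA genes were detected, and 15.8% and 50.3% had no read. The protein-coding neighbours were thus detected less often than protein-coding genes at large. No test by type was made. None of the neighbours that could be tested differed between the libraries by the same binomial test, in which 3.88% of all genes did. The clusters were unlike one another in these counts, and are described in turn.

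In the IGF2-H19 and KCNQ1 domains on chromosome 11, 6 of 13 genes were detected, the 4 described above included, and 4 had no read: INS, INS-IGF2, IGF2-AS and KCNQ1DN. PHLDA2, a maternally expressed gene that restrains placental growth, was the highest with 52 and 55 reads and 7.69 and 8.44 TPM, 2.51 ± 0.407 times CDKN1C (SD, n = 2). SLC22A18, a membrane transporter also maternally expressed, had 3.27 and 2.49 TPM. KCNQ1 had 0.80 TPM in replicate 1 and 2.57 in replicate 2 at nearly the same number of reads, with weighted lengths of 3245 nt and 928.11 nt, and was thus not called detected. The KCNQ1 domain thus held KCNQ1OT1, the RNA known to silence neighbours there on the paternal chromosome. Detected beside it were CDKN1C, PHLDA2 and SLC22A18, which are known to be silenced by it on that chromosome.

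In the DLK1-MEG3 domain on chromosome 14, 1 of 8 genes was detected and 6 had no read. The detected gene was BEGAIN, a postsynaptic protein at the edge of the cluster, with 22.25 and 26 reads and 1.39 and 1.85 TPM. DIO3, the deiodinase that inactivates thyroid hormone, had 2 and 3 reads. DLK1, MEG3, RTL1, MEG8, MEG9 and DIO3OS had none, and these 6 include genes known as paternally expressed (DLK1 and RTL1) and as maternally expressed (MEG3 and MEG8).

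In the SNRPN-UBE3A domain on chromosome 15, 1 of 11 genes with a row was detected, 5 had no read and 5 lay between. UBE3A, a ubiquitin ligase that is imprinted in neurons and made from both alleles elsewhere, had 1006 and 958 reads and 29.7 and 28.3 TPM, at least 60.7 times the limit for SNRPN. MKRN3, which delays puberty, had 8 and 14 reads. NDN, MAGEL2, ATP10A and PWAR6 had none, as SNRPN had none. The small nucleolar RNA genes processed from SNHG14, 46 of the SNORD115 and 28 of the SNORD116 family, had no reads either, and such short RNAs without a poly(A) tail are not captured by the poly(A)+ method.

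In the PEG3 domain on chromosome 19 none of the 5 genes with a row was detected, and PEG3, MIMT1, ZIM2, ZIM3 and USP29 all had no reads in both replicates. It was the only one of the 6 lists of domain genes without any read.

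In the PEG10 domain on chromosome 7, 4 of 6 genes were detected and none was at 0 in both. SGCE, a sarcoglycan that starts next to PEG10 in the opposite direction and is paternally expressed like it, had 118 and 124 reads and 12.7 and 14.6 TPM, 25.2 ± 11.4 times PEG10 (SD, n = 2). CASD1, an acetyltransferase for sialic acid (4.79 and 7.17 TPM), PPP1R9A, an actin-binding protein (4.91 and 4.31 TPM), and TFPI2, a protease inhibitor (3.13 and 3.74 TPM), were also detected. PEG10 was thus lower than 4 of its 5 listed neighbours in both replicates.

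In the MEST domain on chromosome 7, 1 of 4 genes with a row was detected. COPG2, a subunit of the COPI vesicle coat whose end lies against MEST, had 273 and 264.85 reads and 45.6 and 45.9 TPM. It shares 228 exonic bases with MEST on the opposite strand, 4.78% of those of MEST, while MEST had a single read. Of the transcripts antisense to MEST, MESTIT1 had no reads and ENSG00000270823, which shares 12.6% of the exonic bases of MEST, had 2 and 1.

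**Figure D5:**
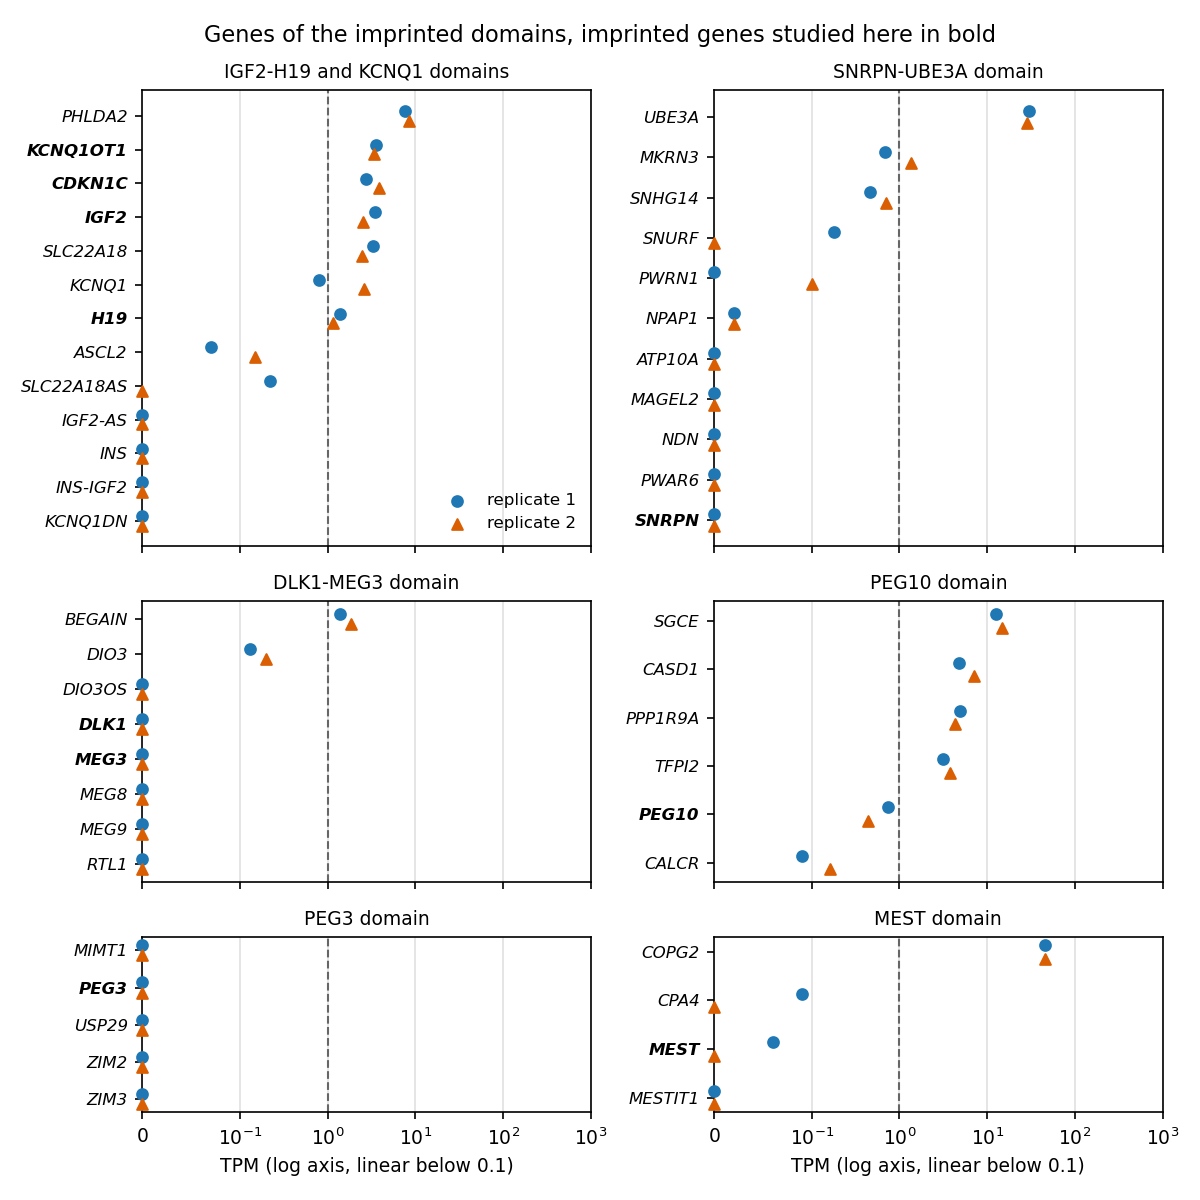
TPM of the listed genes of the 6 imprinted domains, with a circle for replicate 1 and a triangle for replicate 2, on a log axis that is linear below 0.1, and the 10 imprinted genes in bold. All genes of the PEG3 domain are at 0, whereas in the SNRPN-UBE3A and MEST domains a single gene, UBE3A at 28.3 to 29.7 TPM and COPG2 at 45.6 to 45.9 TPM, stands far above the rest.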

How the data were processed

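Poly(A)+ RNA of HEK293T cells was sequenced in 2 libraries with reads of 50 bases. Per the labels, the authors used Trimmomatic 0.36, STAR 2.6.1c and RSEM 1.3.1 on GRCh37. The study's methods name featureCounts for counting, but the columns are those of RSEM. The authors deposited expected counts, which divide reads with more than 1 possible gene among those genes, TPM values scaled by transcript length and to 1 total per library, FPKM values scaled by length and depth, and, as scores, each posterior SD of the counts and the bounds of a TPM interval. In 1 further table the authors pooled the reads of both libraries.

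Symbols, gene types and positions were taken from GENCODE release 44 on GRCh37 (96.1% of 57736 identifiers). The 10 genes and the lists of neighbours, partners, paralogues and markers were chosen with earlier results of these data known. A gene counted as detected when both replicates reached a TPM of 1. Library sizes were scaled with edgeR 4.0.16 (TMM) on counts rounded to whole numbers, and the libraries were compared with an exact two-sided binomial test in scipy 1.17.1, Benjamini-Hochberg adjusted over genes whose counts summed to 10 or more. Log2 ratios used 0.5 added counts. The test was checked on simulated counts that held counting error only, so the check cannot show how it behaves with further spread between libraries. Genes that could be named were all 10, genes overlapping them, and of each list up to 5 with the highest mean TPM, those without reads and all paralogues. Alternatives were other units, thresholds, normalizations and filters, and leaving out a replicate. For 1 marker gene the result is not reported here.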

Additional observations from a re-analysis of the deposited data

How the results depend on the processing

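The levels depended most on the estimate used. The median over the 10 genes was a TPM of 0.31, 0.218 in FPKM and 0.245 in the authors' pooled table, but 3.35 with RSEM's posterior mean TPM, under which MEG3, a gene without reads, had 8.27; the cause was not tested. Leaving out a replicate gave medians from 0.22 to 0.40. With CPM, which is not per length, in place of TPM, 6 of 10 genes kept their place in the order. With the posterior mean 1 did, and leaving out a replicate kept from 3 to 8. The 3 counts ties as moves: without replicate 1, MEST stood at 0 and shared a place with DLK1, MEG3, PEG3 and SNRPN. The only other change there was CDKN1C (3.80 TPM) above KCNQ1OT1 (3.36 TPM). With a TPM of at least 5, 0 of the 4 detected genes remained detected, beside 19.3% of all genes. The number detected, with the share of all genes, was 5 with a TPM of at least 0.1 (38.8%), 3 with an FPKM of at least 1 (25.7%), 5 with at least 10 reads (26.1%), 6 with a lower bound of at least 1 (25.1%), and 4 without either replicate (30.3% and 30.6%). The exact binomial test called 0 of the imprinted genes under all 5 alternatives, with a lowest adjusted p from 0.291 to 0.561, while the number called over all genes ran from 506 to 752 and was 71 among genes with whole counts. The mean posterior SD of the IGF2 count, as a percent of that count, was 1.56%, and from 1.15% to 1.97% without either replicate. H19 and PEG10 rested on 10 to 20 reads per library, so their side of the detection threshold is uncertain. The 6 genes counted above by the lower bound included MEG3, which had no reads and bounds of 1.93 and 2.05 TPM. They also included MEST, which had 1 read in all and a bound of 1.76 TPM in each replicate. That count was therefore not read as detection of MEG3 or MEST. No paired analysis was possible because the study has 1 group.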

Other observations

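Of 17 imprinted genes outside these clusters with a row, 12 were detected and 1 (NLRP2) had no read. All are protein-coding except the lncRNA GNAS-AS1, which was detected with 2.30 and 2.56 TPM, and they include IGF2R, named above as imprinted in mouse. By the same rule 63.7% of protein-coding and 12.4% of lncRNA genes were detected, and the difference was not tested. GNAS, which encodes the stimulatory G protein subunit, had 868 and 823 TPM. PLAGL1, a zinc-finger regulator of growth, had 44.9 and 44.5 TPM, BLCAP had 39.3 and 43.8, and GRB10, an adaptor that restrains insulin signalling, had 35.1 and 30.8.

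Of 12 genes that derive from retrotransposon gag sequences, PEG10 itself included, 7 were detected, also beside 63.7% of protein-coding genes. RTL8A had 120 and 116 TPM, RTL8C had 91.2 and 85.8, LDOC1 had 53.9 and 50.1, RTL8B had 23.9 and 24.7 and RTL10 had 23.1 and 20.5. RTL1, RTL3 and RTL4 had no reads. The 3 RTL8 genes are near-identical copies, and their counts of 349.55 to 695.19 reads had a posterior SD from 4.19 to 5.21 reads.

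Of 12 genes with a row that set or keep imprints, 8 were detected, beside the same 63.7%. TRIM28, the co-repressor that zinc-finger proteins bring to imprinted regions, had 648 and 576 TPM, DNMT1, the maintenance methyltransferase, had 310 and 237, and CTCF, the insulator protein that binds between IGF2 and H19, had 54.2 and 55.5. The histone methyltransferase SETDB1 had 46.0 and 37.8 TPM and SMCHD1, a chromatin protein that keeps some imprinted genes silent, had 40.7 and 32.0. ZFP57, a zinc-finger protein that holds methylation at imprints, had no reads, nor had DNMT3L and NLRP7. ZNF445, which acts like ZFP57 and was named after its values were seen, had 15.6 and 15.0 TPM.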
